A study of Rattus norvegicus with 12 samples.

Results

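Rat tail tendon fascicles held under cyclic tensile strain for 24 h were compared with fascicles kept unstrained for the same 24 h, with 3 RNA samples and 1 Illumina bead array in each group, 6 of the 12 arrays of the study. The other 6 arrays hold 3 strained and 3 unstrained samples at 1 h. They enter the estimate of the spread, and their values stand beside those at 24 h. All groups are rat tail tendon, and neither a genotype nor an agent is named for any of them. The breed, age and sex of the rats and the amplitude and rate of stretching were not given in the sources used here. Nothing in the labels ties the 3 samples of a group to separate rats or separate cultures. The p-values therefore rest on the spread between these samples alone, and that spread may be technical.

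A fascicle is the bundle of parallel collagen fibres from which a tendon is built, and its resident cells are tenocytes, elongated fibroblasts that lie in rows between the fibres. Tenocytes make the collagens and proteoglycans of the tendon and also the proteinases that break them down. They sense stretch through integrins, the actin cytoskeleton and membrane channels, and tendon that is cut loose from its normal load is known to turn on matrix-degrading genes. Acute-phase proteins are secreted defence and transport proteins, studied mostly in liver, and ribosome assembly in the nucleolus is a classical part of the growth programme of a cell.

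Every value is a linear intensity that the authors normalized between arrays, and each gene is represented by its brightest probe. Tests were made with limma on log2 intensity over the 11258 brighter probes, for 7780 named genes, and a Benjamini-Hochberg adjusted p under 0.05 counted as a call. Errors of log2 fold changes are standard errors of that fit, and each is strained over unstrained. At 24 h the correlation over all probes was 0.978 to 0.985 within a group and 0.965 to 0.979 between the groups. Tendon genes were bright on these arrays: on the unstrained 24 h arrays Tnmd, the tendon protein tenomodulin, read 1581, 1839 and 2382, and Dcn, the collagen-binding proteoglycan decorin, read 9705, 8675 and 9013, where the median probe reads 56.95.

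The cells were not tenocytes alone. Of 18 macrophage markers on the array 17 were kept, and their summed intensity was 3156 to 4566 on the unstrained and 1954 to 2637 on the strained 24 h arrays. Only 4 of 16 lymphocyte, 4 of 16 neutrophil and mast cell and 4 of 13 endothelial markers were bright enough to be kept, with overlapping sums for lymphocytes (225 to 243 unstrained, 218 to 230 strained) and endothelium (235 to 239 and 225 to 243) and separate ones for neutrophils and mast cells (233 to 296 and 216 to 224). The 5 kept markers of smooth muscle and pericytes summed to 315 to 358 on the unstrained and 410 to 527 on the strained arrays, and the 6 of nerve to 534 to 748 and 443 to 489. No array value lies below 33.71, so no marker can read 0. In whole fascicles, fewer cells of a type and less RNA per cell cannot be told apart.

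Strain for 24 h changed 263 of the 11258 probes (2.34%), with 109 higher (0.968%) and 154 lower (1.37%). By gene, 87 of 7780 rose (1.12%) and 129 fell (1.66%), and 45 further probes carry no gene name here. Called or not, 4140 of the 7780 genes (53.2%) had a log2 fold change above 0, the share beside which the counts above 0 in each list stand. Falls were larger than rises: the median log2 fold change was 0.63 among probes that rose and -0.86 among those that fell, and 13 rises against 60 falls reached 2-fold. In all 263 called probes the 2 groups did not overlap, which held for 20.5% of the kept probes in general. Of the 216 genes, 47 were called in each of the 12 fits that left out 1 array, 11 rises and 36 falls. The count of calls depended on single arrays, with 69 probes called without strained replicate 2 at 24 h and 95 without strained replicate 3. Leaving out unstrained replicate 1, 2 or 3 at 24 h gave 109, 118 or 107 calls.

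**Figure D1:**
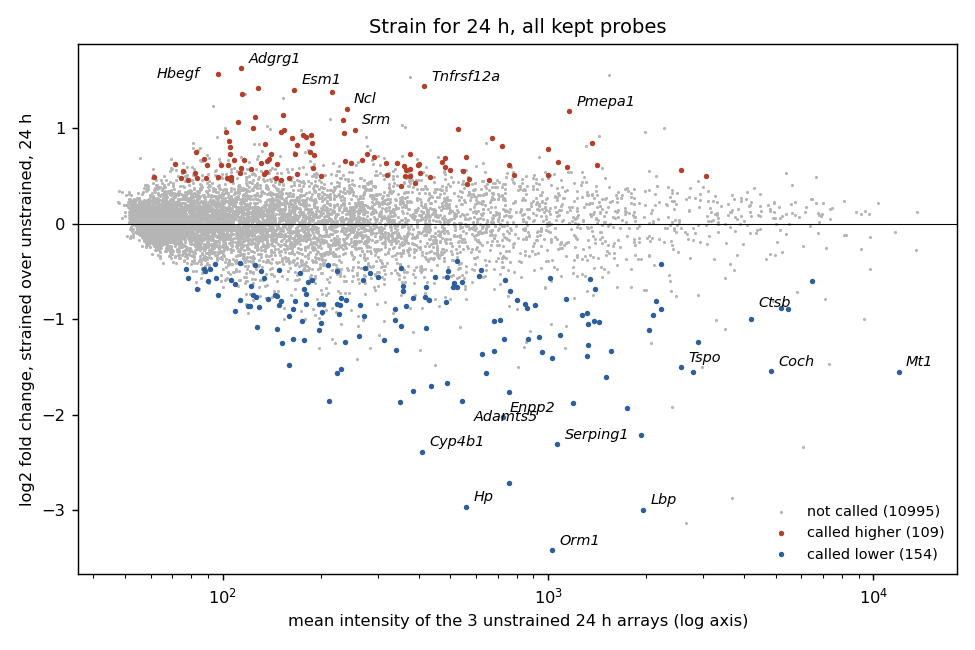
Each of the 11258 kept probes is a point at its mean intensity on the 3 unstrained 24 h arrays (log axis) and its log2 fold change, strained over unstrained at 24 h. The 109 red probes were called higher and the 154 blue ones lower, and the blue points reach down to -3.42 (Orm1) while the red reach up to 1.63 (Adgrg1).

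Receptors, ligands and membrane proteins were among the larger rises, and are named here because they were called and not as a tested group. Adgrg1, an adhesion receptor coupled to G proteins, read 98.4, 138 and 105 on the unstrained and 256, 412 and 403 on the strained arrays, a log2 change of 1.63 ± 0.36 (limma adjusted p = 0.036), a call that ended when the fit let the variance follow intensity (limma adjusted p = 0.0707). Hbegf, a membrane-anchored ligand of the EGF receptor, read 86.4, 97.7 and 105 unstrained and 392, 217 and 271 strained, a log2 change of 1.57 ± 0.29 (limma adjusted p = 0.0192). Tnfrsf12a, the receptor of the cytokine TWEAK, read 462, 386 and 401 unstrained and 1086, 1161 and 1132 strained, a log2 change of 1.44 ± 0.25 (limma adjusted p = 0.0125). In all 3 genes the lowest strained array stood above the highest unstrained one, and the strained arrays of Tnfrsf12a lay within a narrow band. Il1rl1, the receptor of interleukin 33, rose by 1.12, Fzd8, a Wnt receptor, by 0.91, and Adcy3, an adenylyl cyclase, by 0.96 on the log2 scale. Lists of such genes held as many falls, and some surface receptors fell, as given below. Of 39 kept G protein-coupled receptors, G proteins and their regulators 2 rose and 2 fell (5.13% each). Among 39 growth factors and secreted signals 1 rose and 1 fell (2.56% each), and among 22 Wnt and Notch genes 1 and 1 (4.55% each).

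Another 3 called genes encode proteins that carry glycosaminoglycan chains. Esm1, a secreted proteoglycan also called endocan, read 215, 148 and 133 on the unstrained and 511, 291 and 529.8 on the strained arrays, a log2 change of 1.40 ± 0.22 (limma adjusted p = 0.00841). Sdc1, the heparan sulphate proteoglycan syndecan 1, read 102, 128 and 105 and 189, 250.2 and 268, a log2 fold change of 1.07 ± 0.17. Cspg4, the chondroitin sulphate proteoglycan NG2, rose by 0.81. It is also a marker of pericytes and itself 1 of the 5 summed markers of smooth muscle and pericytes given above, so that sum is not separate from it. It was the only 1 of the 5 called, and the part of pericytes in its rise was not tested. Esm1, Sdc1 and Cspg4 were the 3 called of 38 kept proteoglycan genes. Of the 38, 18 were above 0, at a median of -0.02 against 0.01 for all kept genes. Of 37 genes of TGF-beta signalling 2 rose and none fell. Pmepa1, a target that restrains the pathway, read 1060.0, 1404 and 1017 unstrained and 2621, 2994 and 2230.2 strained, a log2 change of 1.18 ± 0.16 (limma adjusted p = 0.00396), and Fstl3, an antagonist of activin, rose by 1.00. Among 42 adhesion genes 3 rose: Itgb1, the beta 1 integrin chain of collagen receptors, by 0.47, and the membrane proteins Emp3 by 0.50 and Myadm by 1.38. Tm4sf1, a tetraspanin-like surface protein, rose by 0.75. Of the 15 genes of the last 2 paragraphs, Esm1 and Pmepa1 were called in all 12 fits with 1 array left out. Each of the 6 arrays of 24 h, when left out, ended between 6 and 12 of the 15 calls, strained replicate 2 the most, with limma adjusted p up to 0.207.

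Nearly all genes of ribosome assembly had positive log2 fold changes, of which a minority passed the test. Of 54 kept genes on a list of Myc, RNA polymerase I and nucleolar assembly factors, 52 had a positive log2 fold change, 10 rose (18.5%) and none fell, at a median of 0.44 against 0.01 for all kept genes. In 34 of the 54 the 3 strained arrays lay above the 3 unstrained ones, as in 952 of all 7780 genes. Ncl, nucleolin, the major RNA-binding protein of the nucleolus, read 271, 194 and 256 on the unstrained and 631, 516 and 509 on the strained arrays, a log2 change of 1.21 ± 0.18 (limma adjusted p = 0.00603). Mybbp1a, a nucleolar regulator of ribosomal RNA transcription, read 190.4, 205 and 167 unstrained and 294, 415 and 372 strained, a log2 change of 0.93 ± 0.15 (limma adjusted p = 0.00841). Neither gene had overlapping groups.

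The other 8 genes that rose include processing and assembly factors of both subunits. Mrto4, which takes part in assembly of the large subunit stalk, rose by 0.95, Gar1, a core protein of the particles that pseudouridylate ribosomal RNA, by 0.73, and Bop1, a processing factor of the large subunit, by 0.68. Nle1 rose by 0.67, Utp4 by 0.60, Lyar by 0.49, Noc2l by 0.49 and Noc4l by 0.48. The members of smallest p that were not called were led by Nhp2, a partner of Gar1, at 0.54 (limma adjusted p = 0.0664), and included Rrs1 at 0.65 (limma adjusted p = 0.0983). Taking the median of the list on each array against the unstrained 24 h mean gave 0.482, 0.505 and 0.272 on the log2 scale for the strained arrays and -0.02, 0.067 and -0.071 for the unstrained ones. The same measure was 0.458, 0.123 and 0.052 on the unstrained 1 h arrays, so replicate 1 of the unstrained 1 h group was within the range of the strained 24 h arrays and the other two lay below it. At 1 h the list's median log2 fold change was 0.06. Ncl and Mybbp1a were called in all 12 fits with 1 array left out; the list's count of rises ranged from 2, without strained replicate 2 at 24 h, to 11, and leaving out any one of the 6 arrays of 24 h ended 4 to 8 of the 10 calls (limma adjusted p up to 0.172).

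**Figure D2:**
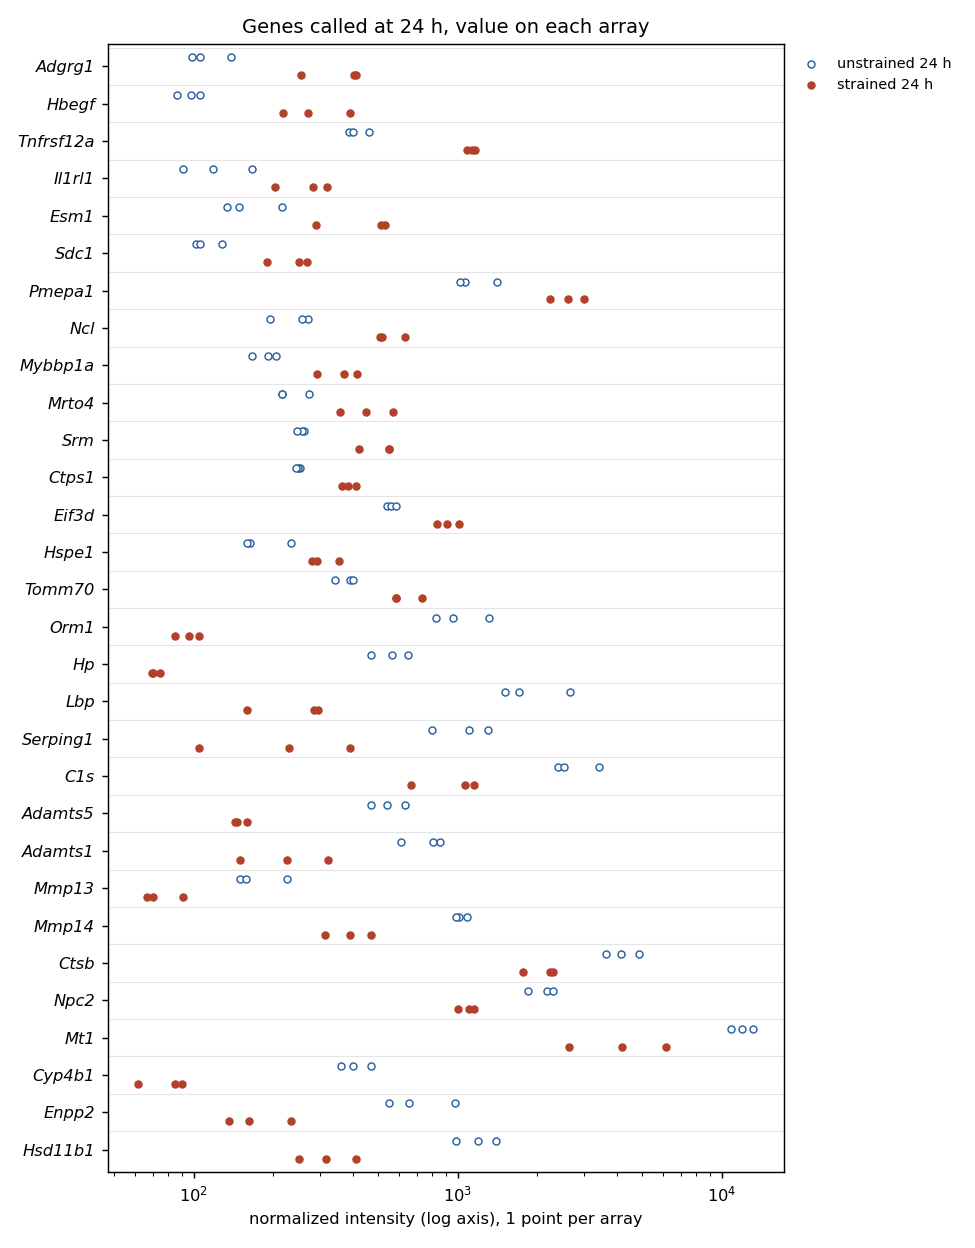
Normalized intensity (log axis) of 30 called genes on each of the 6 arrays of 24 h, 1 point per array, unstrained open and strained filled. In every gene shown the 3 strained points lie on one side of the 3 unstrained ones, to the right in the upper 15 genes and to the left in the lower 15.

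Some enzymes that make polyamines and nucleotides also rose. On the list of polyamine, nucleotide, amino acid and one-carbon enzymes 6 of 47 kept genes rose (12.8%), none fell and 33 were above 0, at a median of 0.21. Srm, spermidine synthase, read 261, 256 and 245 on the unstrained and 424, 547 and 548 on the strained arrays, a log2 change of 0.98 ± 0.14 (limma adjusted p = 0.0044). Sms, spermine synthase, the next enzyme of the pathway, read 206, 202 and 166 and 295, 316 and 333, a log2 fold change of 0.72 ± 0.14. Odc1, ornithine decarboxylase, which feeds both, read 179.9, 224 and 154 and 258, 341 and 277 and was not called (0.66 ± 0.18, limma adjusted p = 0.0963). The groups were apart in all 3 genes, and Srm had the tightest unstrained values. Ctps1, which makes CTP, read 252, 249 and 244 unstrained and 411, 363 and 383 strained and rose by 0.63 (limma adjusted p = 0.00615). Ahcy, which clears the product of methylation reactions, rose by 0.64, Mthfd1l, a mitochondrial one-carbon enzyme, by 0.61, and Nme2, a nucleoside diphosphate kinase, by 0.61.

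Translation genes had smaller positive values. Of 48 initiation and elongation factors and tRNA synthetases 47 were above 0 and 3 rose (6.25%), at a median of 0.24. In 28 of the 48 the strained arrays lay wholly above the unstrained arrays, as in 952 of all 7780 genes. Eif3d, a cap-binding subunit of initiation factor eIF3, read 539.9, 561 and 582 unstrained and 836, 906 and 1007 strained, a log2 change of 0.70 ± 0.12 (limma adjusted p = 0.0101). Pabpc4, a poly(A)-binding protein, rose by 0.56 and Eif2b3, a subunit of the exchange factor of eIF2, by 0.48. Eif5a, the factor whose hypusine residue is made from spermidine, read 343, 199.6 and 282 and 414, 642 and 478 and was not called (0.91 ± 0.22, limma adjusted p = 0.0516). Ribosomal proteins themselves shifted little: 50 of 57 were above 0 at a median of 0.14, and Rpl5 was the 1 gene that rose, by 0.62, a value that may include transcripts of near-identical copies that the probe cannot part. Of the 10 genes called in these 2 paragraphs, Srm, Ctps1 and Eif3d were called in all 12 fits with 1 array left out, and each array of 24 h, left out, ended 3 to 7 calls, strained replicate 2 the most (limma adjusted p up to 0.198).

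Promoters of 2 genes of these groups are shown because they hold the E-box CACGTG, the palindrome bound by Myc and by related factors such as USF and TFE3. They are the 250 bases before the RefSeq start of each gene in the rat build GRCr8, read on the gene's strand, with the motif in capitals, and were chosen after the values were seen. Srm lies at chr5:164308752-164309001 and Mybbp1a at chr10:57555208-57555457, both on the plus strand.
Srm: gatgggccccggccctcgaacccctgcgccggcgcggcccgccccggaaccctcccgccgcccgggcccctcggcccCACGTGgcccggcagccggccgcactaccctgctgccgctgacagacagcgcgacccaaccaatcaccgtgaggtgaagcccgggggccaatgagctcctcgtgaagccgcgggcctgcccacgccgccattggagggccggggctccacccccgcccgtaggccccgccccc
Mybbp1a: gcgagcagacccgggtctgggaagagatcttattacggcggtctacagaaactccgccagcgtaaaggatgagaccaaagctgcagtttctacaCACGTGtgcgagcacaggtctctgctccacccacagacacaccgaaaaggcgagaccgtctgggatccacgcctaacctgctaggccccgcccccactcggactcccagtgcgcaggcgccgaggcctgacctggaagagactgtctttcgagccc
Each holds 1 E-box, while Ncl, Gar1 and Mrto4 have none in these 250 bases. Shares of genes with a motif, here and below, and CpG ratios were taken over a longer window, from 250 bases before the start to past it. Of the 87 genes that rose 79 had a promoter in the table. In that window 17.7% of these held an E-box, against 9.28% of the 6499 kept genes with a promoter and 6.65% of all promoters in the table. The share was 30.6% for the 49 matched genes of the ribosome assembly list and 26.7% for the 30 matched genes of the lysosome list, whose called members fell. Promoters of genes that rose were also richer in CpG, with a median observed over expected ratio of 0.86 against 0.75 for all kept genes. These are descriptions of letters and not of binding.

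Most chaperones and mitochondrial import genes also had positive values, and few were called. Of 36 kept chaperones 31 were above 0, 3 rose (8.33%) and 1 fell, at a median of 0.26. Hspe1, the mitochondrial cochaperonin HSP10, read 233, 164 and 159 unstrained and 292, 356 and 281 strained, a log2 change of 0.76 ± 0.15 (limma adjusted p = 0.0229). Cct7, a subunit of the cytosolic chaperonin that folds actin and tubulin, read 888, 522 and 609.9 and 1091, 1457 and 1145, a log2 change of 0.90 ± 0.18 (limma adjusted p = 0.0269). Both had separate groups, with unstrained replicate 1 the highest of its group. Bag2, a cochaperone of HSP70, rose by 0.56. Hsbp1, which binds and restrains heat shock factor, was the 1 that fell (-0.39, limma adjusted p = 0.0483), and it lost its call with the stricter filter on dim probes (limma adjusted p = 0.0671), background subtraction (0.0994) and a variance trend (0.168). Among 44 genes of mitochondrial import and the citric acid cycle 37 were above 0, at a median of 0.18. Tomm70, the import receptor of the outer membrane, read 391, 399.6 and 342 and 581, 732 and 582 and rose by 0.74, and Tomm40, the channel itself, rose by 0.49. The respiratory chain stood near 0, at a median of 0.05 with 1 of 50 called, Ndufab1, the mitochondrial acyl carrier protein, at 0.46.

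The Hspe1 promoter is printed because it holds the heat shock element searched here, the triplets GAA, TTC and GAA with 2 bases between each, on either strand, with 2 overlapping matches in capitals. It is the 250 bases before the RefSeq start (GRCr8, chr9:64084077-64084326, plus strand).
Hspe1: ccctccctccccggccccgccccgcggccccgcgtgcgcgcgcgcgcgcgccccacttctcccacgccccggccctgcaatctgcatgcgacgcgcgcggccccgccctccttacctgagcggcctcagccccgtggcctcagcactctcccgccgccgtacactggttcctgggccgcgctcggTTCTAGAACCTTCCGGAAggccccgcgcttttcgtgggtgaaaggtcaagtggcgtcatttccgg
In the longer window used for shares, the element occurred in 3.80% of the 79 matched promoters of genes that rose (3 genes). It occurred in 0.523% of those of kept genes and in 0.736% of all promoters.

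Several carriers through the nuclear pore were among the genes that rose, named here because they were called and not as a tested group. Ipo4, an importin that carries histones and ribosomal proteins, read 168, 150.2 and 169.7 on the unstrained and 268, 359 and 286 on the strained arrays and rose by 0.89 (limma adjusted p = 0.0101). Kpnb1, importin beta, read 115, 111 and 114 and 165, 157 and 168 and rose by 0.53 (limma adjusted p = 0.00936). Ran, the GTPase that gives transport its direction, rose by 0.51, Cse1l, the exporter of importin alpha, by 0.42, and the pore proteins Nup93 and Nup107 by 0.67 and 0.58. Cse1l had one of the smallest changes and lost its call under 5 of the alternatives. Smn1, the assembly factor of spliceosomal particles, rose by 0.69, Lrrc59, a ribosome-binding protein of the endoplasmic reticulum, by 0.65, and Ercc1, a subunit of a DNA repair nuclease, by 1.14. Of the 16 genes called in the paragraphs on chaperones and the nuclear pore, Kpnb1, Lrrc59 and Smn1 were called in all 12 fits with 1 array left out. Leaving out single arrays of 24 h ended 6 to 13 of the 16 calls, strained replicate 2 the most (limma adjusted p up to 0.198).

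Few actin genes were called. Of 52 actin and SRF target genes 37 were above 0, 2 rose (3.85%) and none fell, at a median of 0.11. Fhl2, a LIM protein that shuttles between adhesions and the nucleus, read 182, 118 and 162 unstrained and 281, 295 and 327 strained, a log2 change of 0.99 ± 0.21 (limma adjusted p = 0.0357). Ezr, which links actin to the membrane, read 82.3, 90.6 and 89.2 and 129, 128 and 163, a log2 change of 0.67 ± 0.12 (limma adjusted p = 0.0151). The groups were apart in both. Nckap1, a subunit of the WAVE complex that drives branched actin, rose by 0.67. The probes of beta actin gave different calls: the brightest probe of Actb stood at 0.55 ± 0.16 and was not called (limma adjusted p = 0.12), a dimmer one rose by 0.99 (limma adjusted p = 0.0357) and the last stood at 1.03 uncalled. Genes widely used as targets of YAP were uncalled by limma in all 21 kept cases, at a median of 0.12, with Myof at 0.66, Ajuba at 0.68 and Axl at 0.45. Of the 21, 8 had an unadjusted p under 0.05, as had 1160 of all 7780 genes. None of the calls of Fhl2, Ezr and Nckap1 held in all 12 fits with 1 array left out, and each array of 24 h ended 1 to 3 of them (limma adjusted p up to 0.168).

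No cell cycle gene was called by limma, although 39 of 45 stood above 0 at a median of 0.23 and 11 had an unadjusted p under 0.05, as had 1160 of all 7780 genes. Ccnd1, cyclin D1, came closest: it read 281, 279.8 and 569 on the unstrained and 748, 790.1 and 1853 on the strained arrays, a log2 change of 1.54 ± 0.37 (limma adjusted p = 0.0506). Replicate 3 was the highest array of both groups. Mcm6, a subunit of the replicative helicase, read 166, 148 and 206 and 208, 296 and 630.0 and was not called (limma adjusted p = 0.137). The list's median was 0.635 on strained replicate 3 against 0.076 and 0.062 on the other two, so the spread among strained arrays was as wide as the shift.

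**Figure D3:**
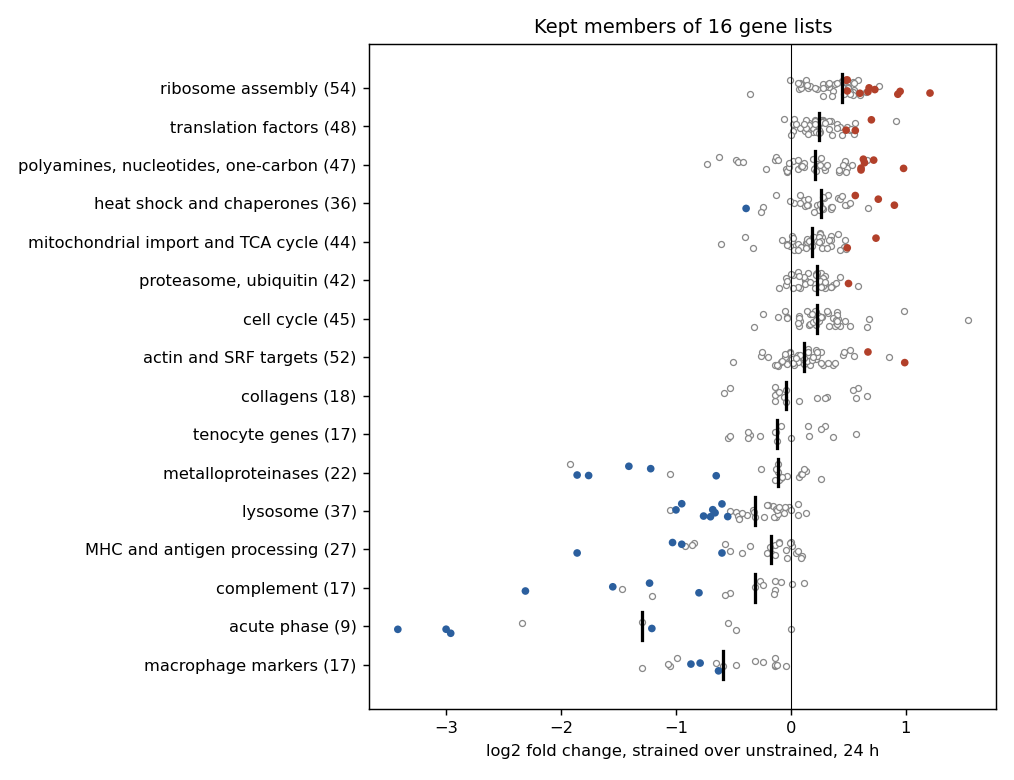
Log2 fold change at 24 h of every kept member of 16 gene lists, with the number kept in brackets; filled points were called (red higher, blue lower), open points were not, and the black bar is the median. The ribosome assembly bar lies at 0.44 and the acute-phase bar at -1.30, while the bars of collagens and tenocyte genes lie at -0.04 and -0.12.

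Acute-phase genes showed the largest falls of the comparison. Of 20 members of the list on the array 9 were bright enough to be kept. All 9 had a log2 fold change below 0, with Fgg at -0.00, 4 fell (44.4%) and none rose, at a median of -1.30. The filter used the mean over all 12 arrays, which can favour members bright on the unstrained 24 h arrays alone. The list's count and median are therefore not separate from that brightness. Orm1, alpha-1-acid glycoprotein, read 957, 827 and 1307 on the unstrained and 105, 95.8 and 84.6 on the strained arrays, 10.7-fold lower (log2 -3.42 ± 0.15, limma adjusted p = 2.33e-07). Haptoglobin, Hp, which binds free haemoglobin, read 470.1, 563 and 647 and 69.4, 74.7 and 69.8, 7.79-fold lower (limma adjusted p = 2.33e-07). Lbp, which hands bacterial lipopolysaccharide to its receptor, read 1507, 1703 and 2663 and 285, 159 and 296, 7.98-fold lower (limma adjusted p = 0.00459). In each of the 3 the brightest strained array stood far below the dimmest unstrained one. The strained values of Hp and Orm1 lie near the array median of 56.95, where background cannot be told from transcript, so their folds are ratios of intensity and the size of the fall in transcript is not known. Hpx, hemopexin, the scavenger of haem, read 167, 127 and 198 and 77.7, 71.9 and 61.1 and fell by a log2 fold change of -1.21 ± 0.15. Its strained arrays were near the array median too. Lcn2, lipocalin 2, which captures bacterial siderophores, read 6212, 7155 and 4915 and 1204, 1674 and 844, also without overlap, and was not called (-2.33 ± 0.81, limma adjusted p = 0.197). Cp, ceruloplasmin, read 199, 157 and 236 and 92.2, 59.1 and 90.1 and was not called either (limma adjusted p = 0.0899). All 4 calls held in every one of the 12 fits with 1 array left out (limma adjusted p up to 0.0277).

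At 1 h these genes were dim in both groups: Orm1 had a mean of 57.7 unstrained and 60.8 strained, Hp of 57.6 and 62.9, Lbp of 142 and 142, and Lcn2 of 239.5 and 337. On each array the list's median against the unstrained 24 h mean was -1.62, -1.539 and -1.472 for unstrained 1 h, -0.08, -0.156 and 0.221 for unstrained 24 h and -1.078, -1.719 and -1.403 for strained 24 h. The level thus stood high on the unstrained 24 h arrays and low in the other 3 groups. The unstrained 24 h arrays are shared between the comparison with strain and any comparison with time, so the 2 are not independent. Il6, the main inducer of these proteins in liver, read 1029, 1803 and 561 unstrained and 933, 484 and 153 strained with overlapping groups and was not called (-1.31 ± 0.67, limma adjusted p = 0.466). Stat3, the factor through which it acts, read 214, 226 and 242 and 161, 177 and 152, without overlap, and narrowly missed the call (-0.48 ± 0.11, limma adjusted p = 0.0516), and Cebpb, another factor of the acute phase, stood at -0.48 ± 0.20 (limma adjusted p = 0.312).

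The Orm1 promoter is printed because it is the gene with the largest fall and because rat Orm1 is a textbook target of glucocorticoid and of C/EBP factors in liver. It is the 250 bases before the RefSeq start (GRCr8, chr5:81788259-81788508, plus strand), with capitals where a match to the glucocorticoid element, GNACA and TGTNC with 3 bases between them, overlaps a match to the C/EBP motif TTGCNNAA.
Orm1: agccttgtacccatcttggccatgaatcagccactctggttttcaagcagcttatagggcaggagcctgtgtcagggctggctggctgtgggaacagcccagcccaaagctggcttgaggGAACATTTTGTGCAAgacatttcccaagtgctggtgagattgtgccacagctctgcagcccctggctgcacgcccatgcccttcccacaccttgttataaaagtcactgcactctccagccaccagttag
In the longer window used for shares, a glucocorticoid element of this form was found in 0.277% of the promoters of kept genes and 0.422% of all promoters. A C/EBP match was found in 9.08% and 10.5%. Only 97 of the 129 genes that fell had a promoter in the table, under 80%, so shares among the genes that fell are not given.

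Some complement and MHC class I genes fell as well. Of 17 kept complement genes 4 fell (23.5%), none rose and 2 were above 0, at a median of -0.31. Serping1, the inhibitor of the C1 complex, read 798, 1302 and 1101 on the unstrained and 390.1, 229.9 and 104 on the strained arrays, a log2 change of -2.31 ± 0.36 (limma adjusted p = 0.00839). C1s, a protease of that complex, read 2394, 2533 and 3416 and 1062, 666 and 1155, a log2 change of -1.55 ± 0.31 (limma adjusted p = 0.0269). The groups did not overlap in either gene, and the strained arrays of Serping1 were spread over more than 3-fold. Its partner C1r fell by a log2 fold change of -0.80 and C2 by -1.23. Cfb, factor B of the alternative pathway, read 6717, 7962 and 7284 and 4133, 2923 and 1515, without overlap, and was not called (-1.47 ± 0.51, limma adjusted p = 0.191).

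Among 27 MHC and antigen processing genes 4 fell (14.8%), at a median of -0.17. B2m, the light chain of class I molecules, read 5647, 7284 and 6523 unstrained and 4547, 3945 and 4281 strained, a log2 change of -0.60 ± 0.12 (limma adjusted p = 0.0267). The class I heavy chains RT1-A1, RT1-A3 and RT1-S3 stood at -0.95, -1.03 and -1.86; these genes are near copies of each other, and their probes may share transcripts. Psmb8, a subunit of the immunoproteasome, stood at -0.92 and was not called (limma adjusted p = 0.0572). Of 20 interferon response genes 1 fell, Ifitm3, which blocks viral entry, at -0.88, and the list had a median of -0.29 with 2 of 20 above 0. Called outside these lists were Cyba and Ncf1, subunits of the NADPH oxidase of phagocytes, at -1.19 and -1.03, Casp1, the inflammasome caspase, at -0.75, and Sirpa, a myeloid receptor that binds CD47, at -1.60. Of 29 kept chemokines and inflammatory cytokines 1 fell (3.45%), none rose and 8 were above 0, at a median of -0.25. It was Cxcl12, at -0.60. Called outside that list were Pf4, the chemokine platelet factor 4, which read 1402, 1736 and 1553 and 788, 594 and 508 (log2 fold change -1.33 ± 0.21), and Tnfsf13, the B cell factor APRIL, which read 598, 491 and 847 and 228, 185 and 228 (-1.56 ± 0.19).

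Macrophage markers moved with these genes. All 17 kept markers had a negative log2 fold change, at a median of -0.59, and 3 of them fell: Adgre1, the antigen F4/80, at -0.87, the Fc receptor Fcgr2b at -0.79 and the leucocyte tetraspanin Cd53 at -0.63. Adgre1 read 100.4, 125 and 135 on the unstrained and 57.4, 69.6 and 69.8 on the strained arrays, the strained values near the array median. The uncalled markers of smallest p, the protease Ctss, the Fc receptor chain Fcer1g and Aif1, stood at -1.05, -1.07 and -0.99. Other macrophage markers moved little. C1qa stood at -0.31, Mrc1 at -0.24, Cd163, C1qb and C1qc at -0.14, Laptm5 at -0.12 and Lyve1 at -0.04, all uncalled. The fall was thus uneven across the markers. At 1 h the median of the same markers was -0.42. The part of macrophage number or activity in the falls of the immune genes was not tested. Of the 19 called genes of these 3 paragraphs, Adgre1, Casp1, Pf4, RT1-A1, Serping1 and Tnfsf13 were called in all 12 fits with 1 array left out, and each array of 24 h ended 5 to 13 calls (limma adjusted p up to 0.169, strained replicate 2 the most).

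Of 22 kept metalloproteinase genes 5 fell (22.7%) and none rose, while the list's median was -0.11. Adamts5, an aggrecanase, read 468, 630.0 and 539 on the unstrained and 146, 159 and 144 on the strained arrays, a log2 change of -1.86 ± 0.20 (limma adjusted p = 0.00131). Adamts1, another proteoglycan-cutting member, read 859, 803 and 611 and 322, 226 and 149.7, a log2 change of -1.76 ± 0.26 (limma adjusted p = 0.00678). Mmp13, a collagenase, read 225, 150.3 and 157 and 90.8, 66.4 and 69.8, a log2 change of -1.22 ± 0.16 (limma adjusted p = 0.00313). The groups were apart in all 3, and the strained arrays of Mmp13 were near the array median. Mmp14, the membrane-bound collagenase that also activates other members, read 1007, 987 and 1086 and 468, 389.5 and 315, a log2 change of -1.41 ± 0.25 (limma adjusted p = 0.0153). Mmp9, a gelatinase, fell by a log2 fold change of -0.65, the carboxypeptidase relative Cpxm1 by -1.52 and the aminopeptidase Anpep by -1.12. At 1 h, Adamts5, Adamts1 and Mmp13 had unstrained means of 91.8, 167 and 53.7 and strained means of 80.1, 168 and 52.1, below the unstrained 24 h arrays.

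Mmp12, the macrophage elastase, had overlapping groups, 2230.2, 4208 and 771 unstrained and 479.6, 1040.4 and 266 strained, and was not called (-1.92 ± 0.66, limma adjusted p = 0.193). Mmp3, stromelysin, was bright in both groups, 11066, 7553 and 8925 and 9511, 11930.4 and 8179, with a log2 fold change of 0.11 and a 95% interval of -0.40 to 0.61. Timp1, the secreted inhibitor, read 14804, 13080.1 and 13080.1 and 14804, 14804 and 14804; the strained arrays sit at the highest value the table holds, so its log2 fold change of 0.12 cannot show a rise. Timp3 stood at 0.12 with an interval of -0.11 to 0.34. Adamts1, Adamts5 and Mmp13 were called in all 12 fits with 1 array left out. Of the 7 called genes, 1 to 4 lost their call for each array of 24 h, and Mmp9 reached a limma adjusted p of 0.154 without unstrained replicate 2.

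Some lysosomal genes fell by modest amounts. Of 37 kept, 8 fell (21.6%), none rose and 4 were above 0, at a median of -0.31. In 20 of the 37 the strained arrays lay wholly below the unstrained ones, as in 793 of all 7780 genes. Ctsb, the cysteine protease cathepsin B, read 3624, 4838 and 4133 on the unstrained and 2240.3, 2283 and 1764 on the strained arrays, 2-fold lower (limma adjusted p = 0.0112). Npc2, which carries cholesterol out of the lysosome, read 2172, 2283 and 1847 and 1099, 1148 and 1000.2, a log2 change of -0.95 ± 0.14 (limma adjusted p = 0.00678). Asah1, acid ceramidase, read 478, 520.2 and 528 and 342, 281 and 344, a log2 change of -0.66 ± 0.10 (limma adjusted p = 0.00839). All 3 had separate groups.

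The aspartic protease Ctsd stood at -0.76, the asparaginyl protease Lgmn at -0.60, the fucosidase Fuca1 at -0.68, the membrane protein Lamp2 at -0.55 and Atp6ap2, an accessory subunit of the proton pump, at -0.70, all called. Outside the list, Smpdl3a, a secreted phosphodiesterase of the sphingomyelinase family, fell by a log2 fold change of -1.33 and the carboxypeptidase Scpep1 by -1.02. Lamp1 stood at -0.46 and Ctss at -1.05, uncalled. The list's median on the single arrays was -0.245, -0.335 and -0.318 for strained 24 h and 0.009, -0.05 and 0.039 for unstrained 24 h; on the unstrained 1 h arrays it was -0.036, -0.002 and 0.039, so here the strained 24 h arrays stood apart from the other 3 groups. Macrophages are rich in lysosomes, and the macrophage markers given above were lower on the same arrays; their part in this was not tested. Asah1, Npc2, Scpep1 and Smpdl3a were called in all 12 fits with 1 array left out. The other calls ended for 2 to 5 of the 10 genes for each array of 24 h, with Ctsd highest at a limma adjusted p of 0.175 without unstrained replicate 3.

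**Figure D4:**
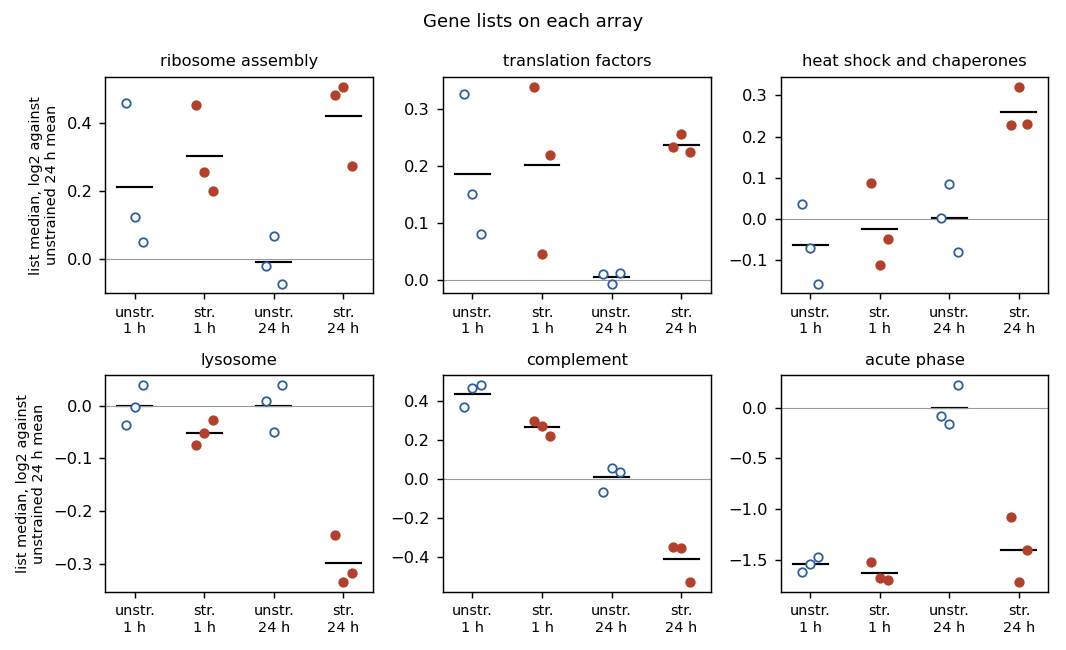
Median log2 level of 6 gene lists on each of the 12 arrays against the mean of the unstrained 24 h arrays, with strained arrays filled and the bar at the mean of 3. Ribosome assembly and translation have their lowest mean on the unstrained 24 h arrays, acute-phase genes stand highest there, and lysosomal genes stand lowest on the strained 24 h arrays (-0.245 to -0.335).

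The metallothioneins Mt1 and Mt3 and some oxidative and detoxifying enzymes fell. Mt1, the zinc and copper binding metallothionein 1, was among the brightest probes and read 13080.1, 11930.4 and 10810.5 on the unstrained and 6123, 4180.2 and 2635 on the strained arrays, a log2 change of -1.55 ± 0.30 (limma adjusted p = 0.0233). Mt3 read 94.6, 108 and 87.9 and 71.2, 58.1 and 46.3, a log2 fold change of -0.74 ± 0.15. The groups were apart in both. The strained arrays of Mt3 were near the array median, where background cannot be told from transcript. Of 31 genes of metal and iron handling 4 fell (12.9%), these 2 and the haem and haemoglobin scavengers Hpx and Hp, at a median of -0.28. Of 41 antioxidant genes 3 fell: Gpx3, the secreted glutathione peroxidase, at -1.38, the microsomal glutathione transferase Mgst1 at -1.70 and Gstt1 at -0.42. Nfe2l2, the transcription factor Nrf2, stood at -0.56 ± 0.14 and was not called (limma adjusted p = 0.0646). Cyp4b1, a cytochrome P450 that hydroxylates fatty acids, read 399.9, 362 and 468 and 90.1, 61.7 and 85.2, a log2 change of -2.39 ± 0.14 (limma adjusted p = 4.16e-06). Its strained arrays were near the array median as well. Cyp27a1, the sterol 27-hydroxylase, stood at -0.59 and the monoamine oxidase Maob at -1.10, both called. These 2 and Cyp4b1 were the 3 that fell (9.68%) of 31 kept cytochrome P450, aldehyde, alcohol and retinoid enzymes. On that list Crabp2 rose by 0.73 (3.23%) and 10 were above 0, at a median of -0.14. Called outside it were the cysteine dioxygenase Cdo1 at -1.48 and Tspo, the translocator protein of the outer mitochondrial membrane, at -1.50. Leaving aside Hpx, Hp and Crabp2, 10 genes of this paragraph were called. Of these, Cdo1, Cyp4b1, Mgst1 and Tspo were called in all 12 fits with 1 array left out, and each array of 24 h ended 1 to 6 calls (limma adjusted p up to 0.204).

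The Mt1 promoter is printed for its metal response elements, the sites of the zinc-sensing factor MTF1. It is the 250 bases before the RefSeq start on the minus strand (GRCr8, chr19:10832976-10833225), with the 7 matches to the core TGCNCNC on either strand in capitals.
Mt1: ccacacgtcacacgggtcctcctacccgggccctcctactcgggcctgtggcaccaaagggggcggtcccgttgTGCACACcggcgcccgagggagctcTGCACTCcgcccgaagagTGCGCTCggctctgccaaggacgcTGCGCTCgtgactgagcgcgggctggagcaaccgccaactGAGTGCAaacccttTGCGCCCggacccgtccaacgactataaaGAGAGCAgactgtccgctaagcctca
The core is short and common: 59.3% of the promoters of kept genes and 50.1% of all promoters hold at least 1 in the longer window used for shares.

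Of 48 genes of lipid metabolism 3 fell (6.25%), none rose and 12 were above 0, at a median of -0.14. Enpp2, autotaxin, the secreted enzyme that makes lysophosphatidic acid, read 547, 653 and 977 on the unstrained and 161, 136 and 233 on the strained arrays, a log2 change of -2.03 ± 0.23 (limma adjusted p = 0.0014). Plpp3, the membrane phosphatase that breaks lysophosphatidic acid down, read 1018, 875 and 986 and 443, 338 and 363, a log2 change of -1.34 ± 0.13 (limma adjusted p = 0.00043). The maker and the remover of this lipid thus fell together, each with separate groups. Pltp, the phospholipid transfer protein, fell by a log2 fold change of -0.67, although its dimmer probe stood at -0.42 uncalled. Other called genes with a role in lipid or inositol chemistry, gathered from outside that list and not a tested group, were Pla2g5, a secreted phospholipase, at -1.02, Ptgr1, which inactivates leukotriene B4 and prostaglandins, at -0.94, the cholesterol exporter Abca1 at -0.80, and Isyna1, which makes inositol, at -1.36. Abca1 and Npc2 were the 2 called of 26 kept cholesterol genes, of which 6 were above 0, at a median of -0.17. Of 19 kept prostaglandin and leukotriene genes 2 fell (10.5%), none rose and 4 were above 0, at a median of -0.12. Ptgs2, the inducible cyclooxygenase, read 1093, 1921 and 1272 and 3220.1, 2373 and 2359.6, higher on every strained array, and was not called (0.92 ± 0.29, limma adjusted p = 0.14). Of these 7 genes and Npc2, Enpp2, Npc2 and Plpp3 were called in all 12 fits with 1 array left out, and each array of 24 h ended 1 to 5 calls (limma adjusted p up to 0.168).

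Regulators of hormone action, transcription and signalling that were called are given next, not as a tested group. Hsd11b1, which regenerates active glucocorticoid inside cells, read 984, 1392 and 1189 on the unstrained and 250.1, 410.1 and 317 on the strained arrays, a log2 change of -1.88 ± 0.40 (limma adjusted p = 0.0351). Nfil3, a transcription factor of the circadian and immune systems, read 398, 496 and 371 and 204, 220.3 and 168, a log2 change of -1.09 ± 0.14 (limma adjusted p = 0.00313). Both, with Mt1, are the 3 called of 22 glucocorticoid and clock genes, whose median was -0.05. Klf15, a factor induced by glucocorticoid, fell by a log2 fold change of -0.47, the repressor Bcl6 by -0.80, Zfp36l1, which destabilises messenger RNAs, by -0.80, and Xbp1 and Trib3, of the unfolded protein response, by -0.57 and -0.81. Xbp1 and Trib3 were the only 2 called of 34 kept genes of endoplasmic reticulum chaperones and the unfolded protein response. Of the 34, 14 were above 0, at a median of -0.03. Rgs2, which shuts off G protein signals, read 1784, 2413 and 1038 and 724, 409 and 272, a log2 change of -1.93 ± 0.46 (limma adjusted p = 0.0495). Gem, a small GTPase that inhibits calcium channels, stood at -1.24 and Adora2b, an adenosine receptor, at -0.89. Of these 10, Klf15 and Nfil3 were called in all 12 fits with 1 array left out. Each array of 24 h ended 1 to 8 calls, and Zfp36l1 reached a limma adjusted p of 0.221 without strained replicate 2.

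Collagens and tenocyte genes were not called. None of 18 kept collagen chains and none of 17 tenocyte genes passed limma's test, at medians of -0.04 and -0.12, and 0 and 1 of them had an unadjusted p under 0.05. Col1a1, the main chain of tendon collagen, read 271, 495 and 911 on the unstrained and 1760.2, 323 and 700.1 on the strained arrays, a log2 fold change of 0.57 with a 95% interval of -1.26 to 2.40. Col3a1 read 228, 85.1 and 724 and 125, 132 and 282, with -0.53 and an interval of -2.09 to 1.03. The arrays of one group differed more than 3-fold in Col1a1. Dcn was measured more tightly, 9705, 8675 and 9013 and 8356, 7553 and 6879, with -0.27 and an interval of -0.47 to -0.06. Tnmd stood at -0.37 (-1.09 to 0.36) and Fmod, fibromodulin, at -0.36 (-0.88 to 0.16). Scx, the transcription factor that marks tendon cells, was not analysed here.

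Of 32 matrix glycoproteins 3 fell (9.38%). Fbln1, the elastic fibre protein fibulin 1, read 691, 655 and 707 unstrained and 503, 282 and 274 strained, a log2 change of -1.01 ± 0.20 (limma adjusted p = 0.0257), Emilin1, another protein of elastic fibres, stood at -0.86 and Igfbp7 at -0.89. Coch, the secreted protein cochlin, read 4872, 4434 and 5245 and 2967, 1060.0 and 1460.3, a log2 change of -1.54 ± 0.32 (limma adjusted p = 0.0335), and Sfrp2, a secreted modulator of Wnt, stood at -0.87. The groups were apart in these 5 genes, with strained replicate 1 the brightest strained array in Coch and Fbln1. None of the 5 was called in all 12 fits with 1 array left out, and each array of 24 h ended 2 to 5 calls (limma adjusted p up to 0.136).

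Early response genes are those that cells switch on first after a stimulus. Of 36 kept, 21 were above 0 and 2 fell, Gem and Zfp36l1, and the median was 0.08 at 24 h and 0.53 at 1 h. Fos read 67.7, 71.2 and 70.3 unstrained and 64.9, 65.6 and 62.5 strained at 24 h, close to the array median, with a log2 fold change of -0.12 and a 95% interval of -0.97 to 0.74; at 1 h it was 1.77. Egr1 read 88.7, 211 and 137 and 349, 119 and 134, with overlapping groups. Hbegf stood at 1.57 at 24 h, where it was called, and at 1.11 at 1 h, where it was not.

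Among other called genes, those that rose included Apex1, a DNA repair endonuclease, at a log2 fold change of 0.70, the arginine methyltransferase Prmt1 at 0.65, the stress granule protein G3bp1 at 0.63, the kinesin Kifc3 at 0.82, the retinoic acid binding protein Crabp2 at 0.73 and the necroptosis kinase Ripk3 at 0.62. Cd302, a C-type lectin receptor, read 1988, 1847 and 1958 on the unstrained and 575, 348 and 363 on the strained arrays and fell by a log2 fold change of -2.21. Ly6e stood at -1.76, the actin-severing protein Scin at -1.24, the spectrin-associated adducin Add3 at -1.22, Plxdc2 at -1.21, and the hypoxia-responsive Ndrg1 and the glycolytic enzyme Aldoc both at -0.84. Ndrg1 and Aldoc were the only 2 called of 32 kept genes of glucose uptake, glycolysis and hypoxia. Of the 32, 15 were above 0, at a median of -0.04. The anticoagulants Pros1, protein S, and Tfpi stood at -0.85 and -0.57, and the endothelial GTPase Rhoj at -0.85. Add3, Ndrg1 and Scin were called in all 12 fits with 1 array left out, and each array of 24 h ended 6 to 12 of these 16 calls (limma adjusted p up to 0.186). Of the probes without a gene name, ILMN_2040557 and ILMN_1376417 rose by 1.42 and 1.36 and ILMN_1357368 and ILMN_1376411 stood at -2.72 and -1.67.

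Some members of other lists had sizeable differences and were not called. Spp1, the secreted matrix protein and cytokine osteopontin, read 604, 2795 and 1229 on the unstrained and 3031, 3961 and 4434 on the strained arrays, a log2 change of 1.56 ± 0.41 (limma adjusted p = 0.0733). F2r, the thrombin receptor, read 93, 139.8 and 119 and 181, 361 and 395, a log2 change of 1.36 ± 0.34 (limma adjusted p = 0.0667). S100a11, a calcium-binding protein, read 2768, 1385 and 2675 and 3416, 4960.2 and 4872, a log2 change of 1.00 ± 0.25 (limma adjusted p = 0.0655). In these 3 the strained arrays lay above all unstrained arrays, while the unstrained arrays of Spp1 differed more than 4-fold among themselves. Loxl2, an enzyme that crosslinks collagen, stood at 0.84 (limma adjusted p = 0.098). Slpi, a secreted inhibitor of serine proteinases, read 4037, 5746 and 1274 and 497, 1392 and 109, with overlapping groups and a log2 change of -2.87 ± 0.73 (limma adjusted p = 0.0692). Jak2, a kinase of cytokine receptors, read 811, 954 and 799.6 and 583, 295 and 276 and stood at -1.23 ± 0.51 (limma adjusted p = 0.306).

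The strain effect differed between 24 h and 1 h in 9 of the 11258 probes (0.0799%), all of them lower at 24 h than at 1 h. In 8 of the 9 the probe names a gene. Orm1, Hp, Cyp4b1 and Asgr1, a lectin receptor known from liver, read at most 105 on every array of the other 3 groups and stood higher on each unstrained 24 h array. Asgr1 read 57, 55.2 and 45.2 unstrained and 51.8, 54.1 and 52.4 strained at 1 h, and 253, 228 and 153 unstrained and 48.8, 63.3 and 60.2 strained at 24 h; the difference of its strain effects was -1.87 ± 0.24 (limma adjusted p = 0.00974). Bst1, a surface enzyme that makes cyclic ADP-ribose, read 54.7, 61.1 and 62 and 66.7, 72 and 59.8 at 1 h and 230.0, 268 and 291 and 118, 98 and 135 at 24 h, a difference of -1.33 ± 0.19 (limma adjusted p = 0.0152). Rnf125, a ubiquitin ligase, had the same order, with a difference of -1.10 ± 0.17. All the genes of this paragraph read near the array median of 56.95 in both 1 h groups. A fall under strain could not have shown there, so their differences do not tell how strain acted on them at 1 h. The unnamed probe read 53.1 to 87.1 at 1 h, and the same limit applies. The lower difference of these probes restates their fall at 24 h, so the shared direction is not a separate result. Outside the unstrained 24 h arrays, Cyp4b1, Asgr1 and Rnf125 mostly read near the lowest kept mean of 56.2. They may have passed the filter only through the group where they were high.

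Nfil3 and Plpp3 were bright at 1 h as well. Nfil3 read 427, 522 and 502 unstrained and 672, 579.8 and 720.2 strained at 1 h, higher on every strained array, and was lower on every strained array at 24 h, a difference of -1.54 ± 0.20 (limma adjusted p = 0.00974). Plpp3 read 1465, 1744 and 1748 and 1515, 1893 and 1542 at 1 h, with overlapping groups, and its difference was -1.33 ± 0.18 (limma adjusted p = 0.0146). None of the genes that rose at 24 h differed from 1 h past the test, which does not show that their effects at the 2 times were alike.

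**Figure D5:**
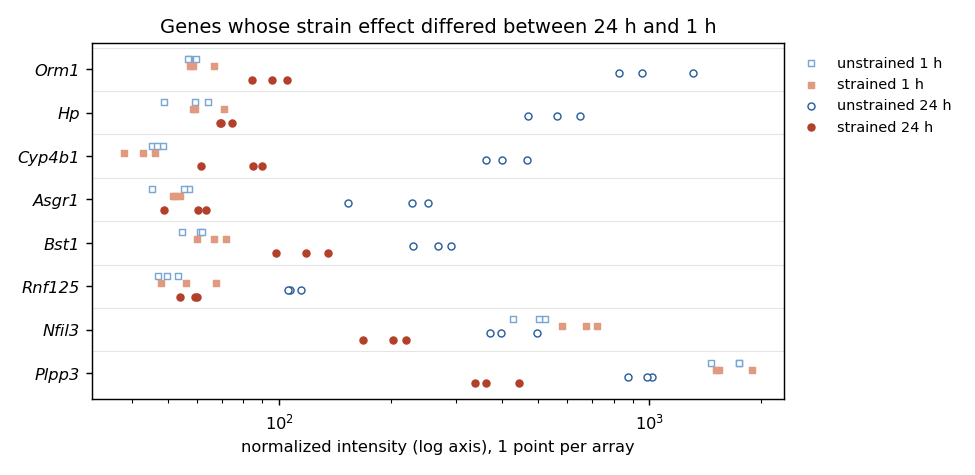
Normalized intensity (log axis) on each of the 12 arrays of the 8 named genes whose strain effect differed between 24 h and 1 h, squares for 1 h and circles for 24 h, strained filled. In the upper 6 genes the unstrained 24 h arrays stand to the right of the other 3 groups (Orm1 at 827 to 1307), while Nfil3 and Plpp3 are bright in all groups and lowest on the strained 24 h arrays.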

How the data were processed

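Total RNA of rat tail tendon fascicles was hybridised to Illumina bead arrays, 1 per sample. The authors deposited 1 linear intensity per probe and array (22517 probes, 12 arrays), already normalized between arrays: once sorted, values of any array match those of the first to within 0.0928%, a pattern that quantile normalization gives. The software, the normalization method and any background subtraction were not given in the sources used here. Another deposited table names 24 value columns only by number and was not used.

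Intensities were taken as log2 with no further normalization, and the upper 50% of probes by mean over all arrays were kept, the dimmest at 56.2. Residual background shrinks the fold changes of dim probes. The number of arrays limits the precision, with a median standard error of 0.12 for a log2 fold change at 24 h. Gene symbols came from GEO's platform annotation (13787 probes with 1 symbol), checked by Entrez identifier against GRCr8, which changed 0. A gene with several kept probes is given by the brightest.

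limma 3.58.1 in R 4.3.3 fitted a mean per group over 12 arrays (8 residual and 4.08 prior degrees of freedom, two-sided tests, Benjamini-Hochberg adjusted over 11258 probes). The fit was tested on simulated arrays. Alternatives were the filter, a variance trend, array weights, cyclic loess, background subtraction, a replicate block, the 24 h arrays alone, and leaving out each array.

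The comparison and the 62 gene lists and markers (2538 of 2543 symbols matched) were chosen with earlier results of these data known. Genes named are those called, up to 4 uncalled members of smallest p per list, a set of 14 genes and those called for the difference between times. Printed promoters are the 250 bases before RefSeq starts in GRCr8. Motif shares and CpG ratios used a longer window, from 250 bases before the start to past it. Genes were matched to promoters by Entrez identifier. The array's own probe positions are left out since no source used here gives their build. Figures used matplotlib 3.10.9 (Python 3.11.15).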

Additional observations from a re-analysis of the deposited data

Results flagged for a closer look

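The effect of strain differed between 24 h and 1 h for 9 probes by a test of the difference itself (limma, Benjamini-Hochberg adjusted over 11258 probes), and each is given as the log2 effect at 24 h minus that at 1 h. Orm1 differed by -3.49 (limma adjusted p = 8.16e-06), Hp by -3.09 (8.16e-06), the unnamed probe ILMN_1357368 by -2.69 (0.00397), Cyp4b1 by -2.24 (0.000447) and Asgr1 by -1.87 (0.00974). Nfil3 differed by -1.54 (0.00974), Plpp3 by -1.33 (0.0146), Bst1 by -1.33 (0.0152) and Rnf125 by -1.10 (0.0297). Every one of the 9 was lower on all 3 strained than on all 3 unstrained arrays at 24 h. Orm1, Hp, Cyp4b1, Asgr1, Bst1 and Rnf125 read near the array median in both 1 h groups, where a fall under strain could not have shown. The unnamed probe ILMN_1357368 read 87.1, 56.4 and 53.1 unstrained and 84.4, 54.2 and 53.7 strained at 1 h. A fall of its size at 24 h could not have shown there either. Groups hold 3 arrays each, too few for a test of single outlying arrays.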

How the results depend on the processing

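Against 263 probes called at 24 h, array weights gave 558 and a replicate block by number within each time point 882, with all 263 among them. The other fits gave 208 (variance trend with robust estimation) to 290 (the 6 arrays of 24 h alone, 196 shared). Fits that left out 1 array gave 69, without strained 24 h replicate 2, to 307. For the 9 probes that differed between times, the variance trend gave 19 and the block 184, and leaving out 1 array 7 to 16. Same-numbered arrays of 24 h deviated together at correlations of 0.0387, 0.309 and 0.388, not all over 0.1, so the numbers were not taken as pairs; 5 of 6 arrays correlated best with their own number, a hint from the data and not the design. Cyclic loess gave 256 calls, 35.2% of them higher against 41.4%, with a shift of the median of 0.001. Of the 145 called genes of the text, 31 lost the call with the 24 h arrays alone (limma adjusted p up to 0.0873): Abca1, Bag2, C2, Cct7, Coch, Cse1l, Cyba, Ercc1, Fbln1, Fstl3, Gem, Gpx3, Hspe1, Ifitm3, Il1rl1, Kifc3, Ly6e, Maob, Mmp9, Mt3, Myadm, Nckap1, Ndufab1, Nme2, Pla2g5, Pltp, Sfrp2, Tm4sf1, Tomm40, Xbp1 and Zfp36l1. The variance trend ended 25 (up to 0.168): Adgrg1, Coch, Cse1l, Eif2b3, Emp3, Gpx3, Gstt1, Hsbp1, Hsd11b1, Itgb1, Lgmn, Ly6e, Lyar, Ndufab1, Nme2, Noc2l, Noc4l, Nup107, RT1-S3, Ran, Rgs2, Rpl5, Sirpa, Tomm40 and Xbp1. Background subtraction ended 9: Cse1l, Emp3, Hsbp1, Lyar, Ndufab1, Nme2, Nup107, Ran and Rpl5. Cyclic loess ended 6: Bag2, Cse1l, Emp3, Ndufab1, Rpl5 and Tm4sf1. No filter ended 5: Crabp2, Ctsd, Rgs2, Rpl5 and Zfp36l1. The stricter filter removed 9 of the 145 and ended the calls of 3 of the other 136: Cse1l, Gstt1 and Hsbp1. Array weights and the block ended 0. No called gene of the text changed sign under any alternative that tested it, but 4 uncalled ones did when an array of 24 h was left out: Col1a1 ranged from -0.06, without strained replicate 1, to 1.16, Egr1 from -0.12, without the same array, to 0.68, Col3a1 from -1.28 to 0.26, highest without unstrained replicate 3, and Mmp3 from -0.04, without strained replicate 2 (-0.03 without unstrained replicate 2), to 0.25. Of 1296 list medians recomputed under the alternatives, 106 moved past the spread of the replicates, and 3 of at least 0.1 in size changed sign. Background left in the intensities and the top value of 14804, reached by Timp1, limit what dim and very bright probes can show.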
